A study of Rattus norvegicus with 3 samples.

Results

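The genes described here are 10 inhibitors of oligodendrocyte differentiation of the Id, Hes and Notch families: Id1, Id2, Id3, Id4, Hes1, Hes5, Hey1, Hey2, Jag1 and Notch1. They were followed through chromatin immunoprecipitation and sequencing (ChIP-seq) of Seh1, a subunit of the nuclear pore complex. An interval called by the authors in oligodendrocyte progenitor cells (OPC) belonged to a gene when the authors' deposited table named that gene as the nearest by transcription start site (TSS). Peaks of immature oligodendrocytes (iOL) carry no gene names, and an iOL peak was tied to a gene when it lay between OPC peaks of that gene. By these rules the genes held 4 of 6704 iOL peaks, at 3 of the genes, and 15 of 9084 annotated OPC peaks, at 7 of the genes. Hes5, Hey1 and Notch1 held no OPC peak, so no iOL peak could be tied to them and their iOL state is not known here.

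The cells were cultured from forebrain of Sprague Dawley rats at postnatal day 1 to 2, and no genetic alteration is given for them. The iOL had 1 day of triiodothyronine (T3) at 60 nM, with PDGF-AA, bFGF and NT3 withdrawn, and the OPC were grown in medium with these factors and CNTF. There was 1 Seh1 library of iOL, 1 Seh1 library of OPC and 1 IgG library of iOL, and no values of the IgG library were read here. No IgG library of OPC was listed. The deposited annotation names Seh1 of OPC together with IgG of iOL, so OPC peaks and scores may rest on a control from the other stage. Peaks were 209 bp wide in iOL and 205 bp wide in OPC, where 9117 were listed, with positions on build rn6 of the rat genome. No read totals were at hand, so depth is unknown and a peak missing from a list was not detected at an unknown depth. With 1 library per stage there is no replicate error and no test, and every count below describes these peak lists. Peak positions give no expression level, so the cell type could not be checked against markers.

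Id proteins are helix-loop-helix proteins without a DNA-binding region, and they hold E proteins and related factors away from DNA. In the oligodendrocyte lineage they act downstream of BMP signals and keep progenitors from differentiating. Jag1 is a ligand of the receptor Notch1. Once bound, Notch1 is cleaved, and its inner part joins the DNA-binding protein Rbpj to switch on Hes and Hey genes, whose products repress genes of differentiation.

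Stretches of 3 genes are shown because the peaks bear on their starts in different ways: Id4 had an OPC peak over its annotated start, Id2 had an iOL peak just downstream of its start, and Hes1, a textbook Notch target, had none within 28 kb in either list. They were taken from RefSeq on build GRCr8, not on the rn6 of the peaks, and bases are counted upstream from the start of the record. For Id2 and Hes1 all 250 bases upstream are given. For Id4 the 30 bases around 82 bases upstream are given, the distance of the centre of its peak from the TSS on rn6. Whether the Id4 start is the same base on both builds was not checked, and no sequence under a peak was read. Capitals mark matches on either strand to TGGGAA, the core bound by Rbpj (Hes1), and to CAGCTG, an E-box form (Id2). They also mark CACNAG (Hes1) and CACGNG (Hes1 and Id2), forms bound by Hes proteins. The Id4 stretch is left without capitals.
Id4 (GRCr8, chr17:16598361-16598390, minus strand, bases -97 to -68): cgcgcaggcgaggggagcaaagcgtatcgc
Id2 (GRCr8, chr6:47470996-47471245, minus strand, bases -250 to -1): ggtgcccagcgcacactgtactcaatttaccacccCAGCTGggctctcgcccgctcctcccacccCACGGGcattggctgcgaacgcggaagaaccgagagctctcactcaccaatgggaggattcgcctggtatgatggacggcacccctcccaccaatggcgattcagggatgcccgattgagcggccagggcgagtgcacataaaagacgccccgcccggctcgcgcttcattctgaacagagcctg
Hes1 (GRCr8, chr11:84213046-84213295, minus strand, bases -250 to -1): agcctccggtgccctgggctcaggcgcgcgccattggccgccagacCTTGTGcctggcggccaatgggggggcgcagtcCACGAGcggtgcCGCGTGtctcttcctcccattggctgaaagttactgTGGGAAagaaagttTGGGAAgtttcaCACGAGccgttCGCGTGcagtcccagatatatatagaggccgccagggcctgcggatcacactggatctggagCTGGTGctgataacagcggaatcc

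The Hes1 stretch held 2 matches to TGGGAA, which start 123 and 109 bases upstream, 4 to CACNAG and 4 to CACGNG. The forms CACNAG and CACGNG overlap where the letters read CACGAG, which happened at 2 places. Promoter sequences were found for 9 of the 10 genes, all but Hey1. TGGGAA was present in 3 of the 9 (Hes1, Hes5 and Hey2), against 21.6% of 27457 promoters of the same length. CACGNG was present in 4 of the 9 (Id2, Hes1, Jag1 and Notch1), against 23.1% of promoters, and CACNAG in 2 (Hes1 and Notch1), against 36.8%. CAGCTG was present in 1 (Id2), against 11.9%. The broader E-box CANNTG, which includes CAGCTG and CACGTG, was present in 3 (Id1, Id2 and Hes5), against 65.2%. GGCGCC, a form bound by Smad proteins, was present in 2 (Hes5 and Hey2), against 9.24%. Neither CACGTG nor AGGTCA, the half-site of thyroid hormone receptors, was present in any of the 9, against 5.79% and 13.7% of promoters. These matches describe letters in the window and no binding. By distance from the start, the Id2 window lay upstream and so outside the Id2 iOL peak, which lay downstream. The GC share of the 250 bases ran from 54.8% in Id1 to 73.2% in Hes5 and Hey2, above the median of 52.0% over all promoters in each of the 9.

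An OPC peak was nearest to 7 of the 10 genes (70.0%), against 30.1% of 18533 coding genes. Within 50 kb of a TSS a peak lay at 5 of the 10, namely Id1, Id3, Id4, Hey2 and Jag1 (50%), against 22.1% of coding genes. Within 1 kb a peak lay at Id4 and Jag1 (20.0%), against 4.46% of coding genes. The shares of the 10 genes were above those of all coding genes at each of these limits. Each rests on 10 genes that were chosen with earlier results of these data known, and the length of genome that lies nearest to each gene was not measured.

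**Figure D1:**
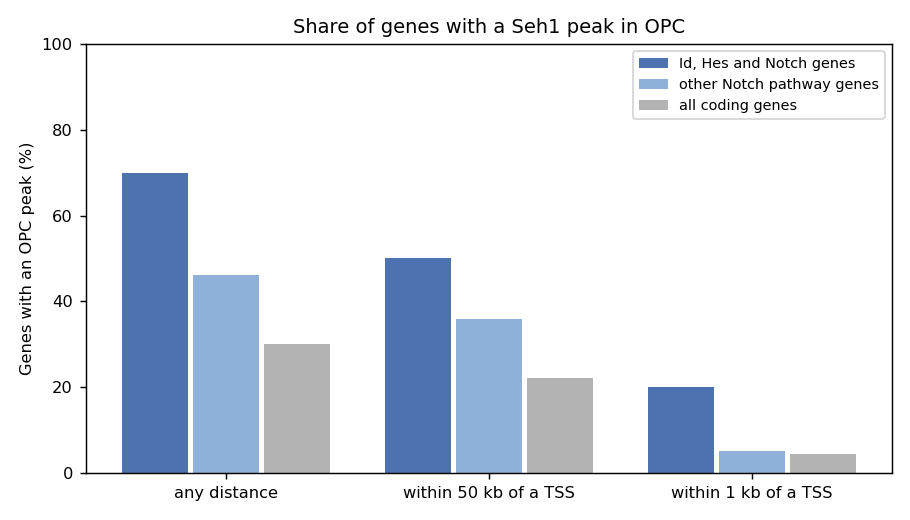
Share of genes, in percent, that were the nearest gene of at least 1 Seh1 peak in OPC, at any distance and within 50 kb or 1 kb of a TSS. Bars show the 10 Id, Hes and Notch genes, 39 other genes of the Notch pathway and 18533 coding genes; the 10 genes stand at 70.0%, 50% and 20.0% and all coding genes at 30.1%, 22.1% and 4.46%.

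The Id genes held 9 of the 15 OPC peaks. Id1 had 1 peak between genes on chromosome 3 (148220937 to 148221141), 5.45 kb downstream of its TSS. The caller's score, which the authors' table gives per peak without a definition, was 9.58 there, the highest among the 15. Only 5.52% of all annotated OPC peaks had a higher score.

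Id2, which is known to restrain progenitors until they differentiate, held 4 OPC peaks on chromosome 6, all upstream of the gene and between genes. They lay 161 kb (44522702 to 44522906), 173 kb (44534989 to 44535193), 174 kb (44535645 to 44535849) and 422 kb (44784239 to 44784443) from the TSS. Scores were 7.66 at the peak 174 kb away and 7.02 at the other 3. Centres of the middle pair were 656 bp apart. A second OPC peak within 1 kb was found for 1.27% of all annotated OPC peaks, 115 in number. Of 18533 coding genes, 1.63% had 4 or more OPC peaks, as Id2 did.

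Id3 held 2 OPC peaks between genes on chromosome 5, at 24.1 kb (154513618 to 154513822) and 39.8 kb (154529254 to 154529458) downstream, each with a score of 7.66. Both lay at the median of the list.

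Id4 was the gene with the peak closest to a start. That peak (chromosome 17, 16695106 to 16695310) was classed as promoter, with its centre 82 bp upstream of the TSS, and it spanned -184 to 20 bp around the TSS. Its score of 6.38 was the lowest of the 15, and 81.4% of annotated OPC peaks and most promoter peaks scored higher. Of 365 promoter peaks 43 (11.8%) scored 6.38 or less, and the median of promoter peaks was 7.66. Its focus ratio, a fraction that the authors' caller reports per peak, was 0.650, the lowest of the 15 and below the median of 0.778 of all peaks. In the RefSeq record on GRCr8 the annotated start of Id4 coincides with an ATG, and where its transcription starts in these cells was not measured. A further OPC peak of Id4 lay between genes 70.4 kb downstream (16624582 to 16624786, score 7.02).

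Outside the 10 genes, the nearest peaks most like that of Id4 in signed distance to the TSS were those of Slc4a11 (-81 bp, score 7.66), Mir3543 (-79 bp, score 8.30) and, tied at -87 bp with a score of 6.38 each, Fam83f and Thrb. Likeness here was the difference in distance, with score breaking ties, over the 1 OPC library. All were classed as promoter peaks, and the peak of Fam83f overlapped an iOL peak by 53 bp, while those of Slc4a11, Mir3543, Thrb and Id4 overlapped none.

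**Figure D2:**
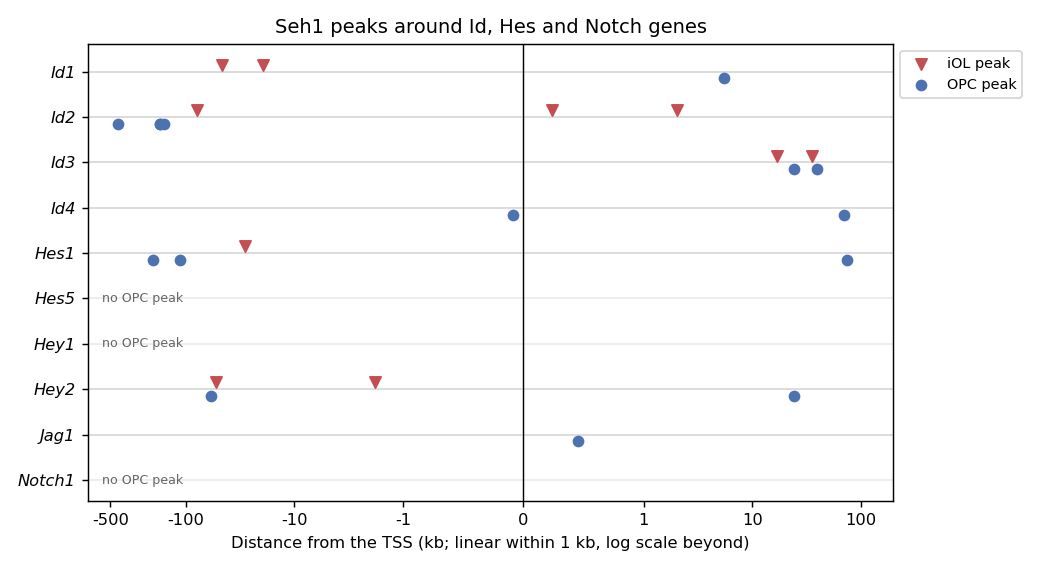
Signed distance in kb from the TSS of each gene, linear within 1 kb and on a log scale beyond, for iOL peaks (triangles) and OPC peaks (circles); negative values are upstream. iOL peaks shown are those between OPC peaks of the gene, between its TSS and an OPC peak, or within 50 kb of its TSS. Hes5, Hey1 and Notch1 had no OPC peak and therefore no inferred TSS. iOL peaks were not searched for there, so the lack of triangles on their rows is by method. The iOL peak of Id2 at 234 bp and the OPC peaks of Id4 at -82 bp and of Jag1 at 452 bp are the ones within 1 kb of a start.

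Among the Notch effectors, Hes1 held 3 OPC peaks between genes on chromosome 11. Upstream peaks lay at 113 kb (74428616 to 74428820) and 200 kb (74515065 to 74515269), each with a score of 8.30, and a downstream peak at 75.6 kb (74239533 to 74239737) had a score of 7.02. The one at 113 kb was labelled a CpG island, as were 472 annotated OPC peaks in all. None of the 3 lay close to the start whose letters are given above.

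Hey2 held 2 OPC peaks on chromosome 1, each with a score of 7.02 and each in a repeat. The upstream one, at 58.7 kb (29132349 to 29132553), lay in an LTR repeat named RNLTR3a-int, which held 3 OPC peaks in the whole list. The downstream one, at 24.3 kb (29215385 to 29215589), lay in a copy labelled tRNA-Glu-GAG. Peaks in tRNA labels numbered 19 in the OPC list, and 0 of the 19 overlapped an iOL peak, against 1.73% of all OPC peaks, a count near that background. Without peaks in repeats, Hey2 would have no OPC peak.

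Jag1 held 1 OPC peak, on chromosome 3 (130114227 to 130114431). It lay in exon 1 of 28, with its centre 452 bp downstream of the TSS, and reached from 350 to 554 bp. Its score of 8.94 was the second highest of the 15, and 8.99% of all annotated OPC peaks scored higher. Jag1 and Id4 were the genes of the 10 whose own transcripts were named in the class of a peak.

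Hes5, Hey1 and Notch1 were the nearest gene of no OPC peak, and no OPC peak was classed in an exon, intron or UTR of their transcripts. Of the 2 coding genes on either side of each in the gene order of GRCr8, those around Hey1 (Tpd52, Mrps28, Stmn2 and Psmb6l1) also had none. Next to Notch1, Sec16a had a peak in an exon 13.2 kb downstream of its TSS (score 8.30). Inpp5e, one gene further, had a peak 167 bp downstream of its own TSS (score 7.66), which was classed as a transcript end and not as promoter. Around Hes5, Prxl2b had 2 OPC peaks, the nearer at 3.71 kb in a 3' UTR (score 8.30), and Pank4 had 1 at 48.1 kb (score 7.66). The stretches around Notch1 and Hes5 thus held OPC peaks that the table gave to other genes.

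The 15 peaks were mostly far from genes. In number 13 lay between genes (86.7%), against 56.7% of all annotated OPC peaks, and 9 lay 50 kb or more from the TSS (60.0%), against 42.3%. Within 1 kb of a TSS lay 2 (13.3%), against 9.47%. There were 8 peaks upstream and 7 downstream of a TSS. Scores ran from 6.38 to 9.58 with a median of 7.02, against a range of 5.11 to 197.3 and a median of 7.66 over all annotated OPC peaks. The scores were coarse, with a typical step of 0.64 between neighbouring values. In such steps the 15 peaks ran from 10 to 15, and the medians were 11 and 12. Of all annotated OPC peaks, 29.5% shared the score of 7.02, so ranks by score rest on few steps. Above 7.66 were 4 of the 15 (26.7%), against 27.6% of all annotated OPC peaks, a share close to that background. At 7.66 were 3 and below it 8. Among the 15 peaks 2 lay in annotated repeats, against 33.2% of all annotated OPC peaks. The focus ratio had a median of 0.778, the same as over all peaks, and a highest value of 0.875.

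**Figure D3:**
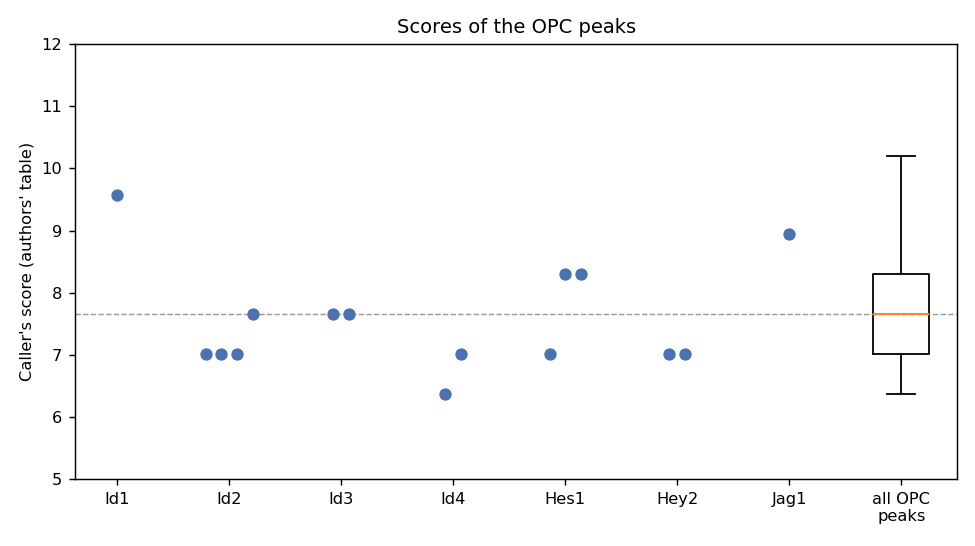
The caller's score of each OPC peak (points, 1 per peak) by gene, beside all 9084 annotated OPC peaks (box, quartiles 7.02 and 8.30 and median 7.66; whiskers, 5th to 95th percentile). The dashed line is the median of all peaks; the peaks of Id1 and Jag1 stand highest and the promoter peak of Id4 lowest.

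The comparison of stages asked where the iOL list had peaks at the same genes. None of the 15 OPC peaks overlapped an iOL peak by 1 bp or more, against 1.73% of all OPC peaks, so a count of 0 among 15, which allows a share of up to 20.0%, lies near that background. That limit covers counting error only. The nearest iOL peak to each was 3.78 to 753 kb away, with a median of 85.2 kb, against 88.5 kb over all annotated OPC peaks. The closest pairs were at Id3 (3.78 and 7.26 kb) and Hey2 (5.30 kb). The OPC peak of Jag1 stood 753 kb from the nearest iOL peak, and 4.29% of annotated OPC peaks stood farther. For Id4 the distances were 361 and 406 kb, exceeded by 13.6% and 11.8% of annotated OPC peaks.

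**Figure D4:**
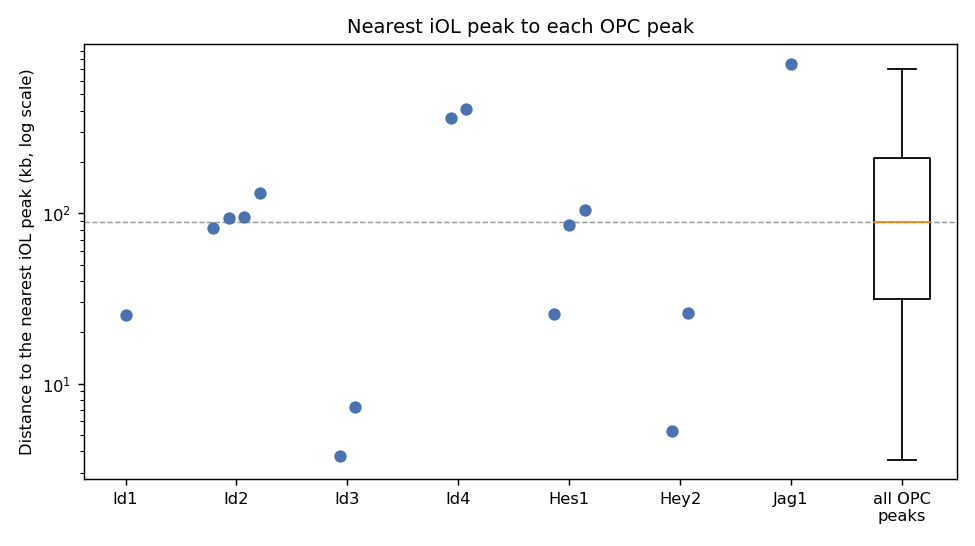
Distance in kb, on a log scale, from the centre of each OPC peak to the centre of the nearest iOL peak (points, 1 per OPC peak) by gene, beside all annotated OPC peaks (box, quartiles and median; whiskers, 5th to 95th percentile). The dashed line is the median of all peaks, 88.5 kb; the peaks of Id3 and Hey2 reach lowest and that of Jag1 highest at 753 kb.

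The 4 iOL peaks that lay between OPC peaks of 1 gene were at Id3, Hes1 and Hey2. For Id3 the iOL peak (chromosome 5, 154525471 to 154525679) was 36.0 kb downstream of the TSS, between the OPC peaks at 24.1 and 39.8 kb. For Hes1 it (chromosome 11, 74343461 to 74343669) was 28.3 kb upstream, closer to the start than any OPC peak of that gene. For Hey2 there were 2 (chromosome 1), at 53.4 kb (29137646 to 29137854) and 1.79 kb upstream (29189273 to 29189481). The one at 1.79 kb was nearer to the Hey2 start than the OPC peaks at 58.7 and 24.3 kb. At Hes1 and Hey2, OPC peaks lay on both sides of the TSS, and the rule takes only iOL peaks between OPC peaks. The rule thus favours places near the start, so these distances are no comparison of stages. Of the 10 genes, 5 had the 2 or more OPC peaks that the rule needs, and 3 of these 5 had a tied iOL peak, against 30.8% of 2001 such genes.

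Counting by distance from the TSS instead, with TSS positions inferred from the authors' distances for the 7 genes with OPC peaks, added iOL peaks at Id1, Id2 and Id3. Id2 had an iOL peak on chromosome 6 (44361570 to 44361778) centred 234 bp downstream of its inferred TSS, reaching from 130 to 338 bp, and another (44359774 to 44359982) centred 2.03 kb downstream. The OPC list had no peak closer to the Id2 start than 161 kb. Among 4970 genes with an inferred TSS, 1.43% had an iOL peak within 1 kb of it. A pair of iOL peaks within 2.5 kb of the TSS was found for 0.101%, which were Id2, Apoe, Atp5g3, Gkap1 and Gpx1. That limit was chosen after the Id2 pair had been seen. The files name no gene for these iOL peaks, and the IgG of iOL at these places was not analysed here. One more iOL peak of Id2, 79.1 kb upstream (44440943 to 44441151), lay between the start and the nearest OPC peak.

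Id3 had a further iOL peak at 16.9 kb downstream (chromosome 5, 154506352 to 154506560), between its start and its OPC peaks. Within 50 kb of the Id1 TSS, iOL peaks lay on chromosome 3 at 19.7 kb (148195765 to 148195973) and 46.8 kb (148168650 to 148168858) upstream. The OPC peak nearest to each was that of Hm13, a gene next but one to Id1. It lay 23.4 kb from the Hm13 TSS and 5.31 kb from the farther iOL peak, which was thus nearer to the Hm13 TSS than to that of Id1. Which TSS was nearer to the other iOL peak was not worked out. The Id1 TSS rests on 1 OPC peak and on the strand in GRCr8, and strands from GRCr8 matched those fixed by several OPC peaks for 93.9% of 1512 transcripts. In all 5 of the 7 genes (71.4%) had an iOL peak within 50 kb of the inferred TSS, against 35.1% of 4970 genes. Id4 and Jag1, the genes with OPC peaks at their starts, had none.

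Other genes of the Notch pathway were counted in a list of 39. An OPC peak was nearest to 18 of the 39 (46.2%), against 30.1% of coding genes, within 50 kb in 14 (35.9%, against 22.1%) and within 1 kb in 2 (5.13%, against 4.46%). The last share was close to that of all coding genes. Their 23 peaks had a median score of 7.66, and 0 of the 23 overlapped an iOL peak, near the background of 1.73% of all OPC peaks.

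By role, an OPC peak was nearest to all 3 Fringe genes, whose enzymes add sugars to Notch, and to all 4 Tle corepressor genes. The count was 2 of 3 for further receptors and 0 of 6 for further ligands. For genes of Notch-cleaving proteases it was 3 of 7, and for the nuclear complex of Rbpj and Maml proteins 2 of 4. For further Hes and Hey genes it was 2 of 5, and for feedback and regulator genes 2 of 7. The share of all coding genes was 30.1%. With only 3 to 7 genes per role, whether any role differs from that share was not tested. These counts take peaks at any distance. Within 50 kb of a TSS a peak lay at all 3 Fringe genes and at 1 of the 4 Tle genes, against 22.1% of coding genes. The peak of Tle1 lay 531 kb from its TSS. The peaks nearest to a TSS were at the promoter of the Fringe gene Mfng (-77 bp, score 7.02) and in an intron of Aph1a, a subunit of gamma-secretase (472 bp, score 7.66). Next came Hes7, a Hes gene of the somite clock (-1497 bp, score 16.6), the Fringe gene Rfng (4527 bp, score 6.38), the Hey relative Heyl (6858 bp, score 7.66) and the receptor gene Notch4 (9185 bp, score 8.30). The score of 16.6 at Hes7 exceeded that of each of the 15 peaks described above. Mfng also had a tied iOL peak 16.6 kb downstream (chromosome 7, 119980085 to 119980293). Of the 39 genes, 4 had the 2 or more OPC peaks that the rule needs (Mfng, Hes7, Notch3 and Tle3), so this was 1 of 4, against 30.8% of 2001 such genes.

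The partners that Id proteins bind, the E proteins, were a list of 3. Tcf4 held 5 OPC peaks, from 434 kb upstream to 172 kb downstream, and Tcf12 held 3, from 73.8 kb upstream to 146 kb downstream, while Tcf3 held none. That was 2 of 3 genes with a peak, against 30.1% of coding genes. The nearest to a TSS was in an intron of Tcf4 at 14.1 kb (score 6.38). Their 8 peaks had a median score of 7.02, and 0 of the 8 overlapped an iOL peak, again near the background of 1.73%.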

How the data were processed

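Per the submitters' processing notes, Bowtie2 and HOMER were used (no versions given), and rn6 and hg18 are listed as builds. Nothing at hand states trimming, duplicate removal or peak thresholds. The authors deposited 1 peak list per Seh1 library and 1 annotated table, made by annotatePeaks.pl on rn6 per the file headers. The table is recorded under iOL, but its header names Seh1 of OPC with IgG of iOL. All 9084 of its intervals equal OPC peaks and 0 equal iOL peaks, so it was read as the OPC annotation. The deposited score of each peak is undefined, and the deposited focus ratio is a fraction from 0 to 1.

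Genes were matched by symbol, and matching by gene ID gave the same 15 peaks. A TSS was inferred from peak centres and signed distances. When each OPC peak was left out in turn, 1273 of 1274 that could be tied went to their own gene. Naming genes by nearest TSS largely fixes that outcome in advance, so it checks the steps and not whether a peak acts on its gene. The steps were also tested on simulated data. Coding genes were those with an NM transcript in RefSeq. Python 3.11.15 and pandas 2.3.3 were used. All 10 genes were named, with the 6 other pathway genes nearest to a TSS. Genes and lists were chosen with earlier results of these data known. Alternatives changed score, distance, repeats, overlap and tying.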

Additional observations from a re-analysis of the deposited data

How the results depend on the processing

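Counts depended most on the score. With peaks above the median score only, 3 of the 10 genes had an OPC peak, 4 peaks remained, 1 gene had a peak within 1 kb of a TSS and 7 other pathway genes (Notch pathway and E proteins) had one, against 7, 15, 2 and 20 with all peaks. Of all annotated OPC peaks 27.6% scored above the median, close to the 4 of 15 (26.7%), so the list as a whole thinned to a like share. The share of all coding genes with a peak at this cut was not counted. Within 50 kb of a TSS, 6 of the 15 peaks were left. Counting iOL peaks within 50 kb of an inferred TSS, an alternative added after seeing the data, gave 8 in place of 4, and counting those between a TSS and an OPC peak gave 6. The other 11 values stayed within 1.5 times the main count, or within 1 score step. No paired analysis was possible because each group has 1 library. With 1 library each, leaving out a replicate was not run.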
